A study of Mus musculus with 6 samples.

Results

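The 99 genes described here were the genes most raised in cells carrying mutant MLLT3, chosen by the measured difference itself, apart from 11 genes left out by name. A gene was taken when its mean over the 6 libraries was at least 5 on the log2 scale, its mutant mean exceeded its wild type mean by at least 0.75, and its lowest mutant value exceeded its highest wild type value. Of 13448 genes with such a mean, among 55487 in the table, 109 (0.811%) met these conditions, and 10 of them were among the 11 left out (Mcpt1, Fstl1, Cyp26b1, Cd36, Wfdc17, Maoa, Ctss, Gpnmb, Cd68, Il7r and Procr). Procr, at 0.73, did not meet them. The same conditions turned round, for genes lower in the mutant, were met by 131 genes. Differences between the groups therefore describe the 99 genes and test nothing about them.

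Bulk RNA was sequenced from mouse bone marrow cells labelled cKit positive that had been transduced with a lentivirus overexpressing MLLT3, either wild type (WT, 3 libraries) or with the substitutions K63E and K67E (DM, 3 libraries). All 6 cultures were sorted and then held in methylcellulose for 8 days, with growth factors that included Flt3L (10 ng/mL) and EPO, SCF, GM-CSF, IL-3, IL-6 and IL-11 (20 ng/mL each), and with gentamycin. Both groups also received 200 nM 4-hydroxytamoxifen, which per the labels serves to delete the endogenous Mllt3 gene, so neither group stands for untreated bone marrow. The labels put every library in batch 1 and do not say whether replicates came from separate animals or cultures, so p-values measure the spread between these libraries, which may be technical. MLLT3, also called AF9, works in complexes that help RNA polymerase II through transcription, and it reads acylated histone tails with its YEATS domain.

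The values are regularized log (rlog) values, a log2 scale on which genes with few reads are pulled toward their mean, so differences of such genes are understated. They hold no counts and the depth is unknown. They are not divided by transcript length, so levels are compared between libraries and not between genes. Kit, the receptor that the cells were selected for, lay between 14.29 and 14.90 after the culture, and the leukocyte gene Ptprc had a mean of 13.83, with neither past the threshold of the test (limma adjusted p 0.368 and 0.133). Means of the 14 stromal markers ran from 0.51 (Dcn) to 9.35 (Thy1, which some blood cells also carry). Acta2 was next to Thy1 at 8.15, and Col1a1 stood at 5.91. The T cell gene Cd3e (2.71) was low. Mllt3 had values of 12.44 to 12.87 in WT and 11.99 to 12.44 in DM, a difference of -0.48 (adjusted p 0.0448) that lost its call in 6 of 12 alternative fits. Its row does not separate the vector's transcripts from those of the endogenous gene.

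Many of the 99 genes are known from macrophages. These cells take up particles, dying cells and lipoproteins through scavenger, lectin and engulfment receptors, and digest them in acid lysosomes. They store or pass on the released lipid with the help of fatty acid binding proteins, and cut the surrounding matrix with secreted and membrane-bound metalloproteases. They also show peptides on MHC class II molecules and bind metal ions through metallothioneins.

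Differences over the 99 genes ran from 0.76 to 1.07 with a median of 0.85, that is 1.69-fold to 2.09-fold with a median of 1.81-fold. The median difference was 0.06 over all genes with a mean of at least 5 and 0.01 over the 18766 genes given to the test, which had a mean of 3 or more. A difference of at least 1 was found for 6 genes and of at least 0.9 for 28. The mean level ran from 7.91 to 18.33, with a median of 11.19 against 9.54 for all genes with a mean of at least 5, and 40 of the 99 had a mean of at least 12. All 99 were called higher by limma at an adjusted p under 0.05, a contrast that the choice of genes had already used. The shares behind that count were 9.2% called higher and 4.71% called lower among the genes tested, and 29.4% of genes with a mean of at least 5 had every DM value above every WT value. Of all called genes 66.1% were higher in DM, and after quantile normalization 51.3% were. In bulk libraries, more cells of a type cannot be told apart from more RNA per cell, and this holds for every gene below.

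**Figure D1:**
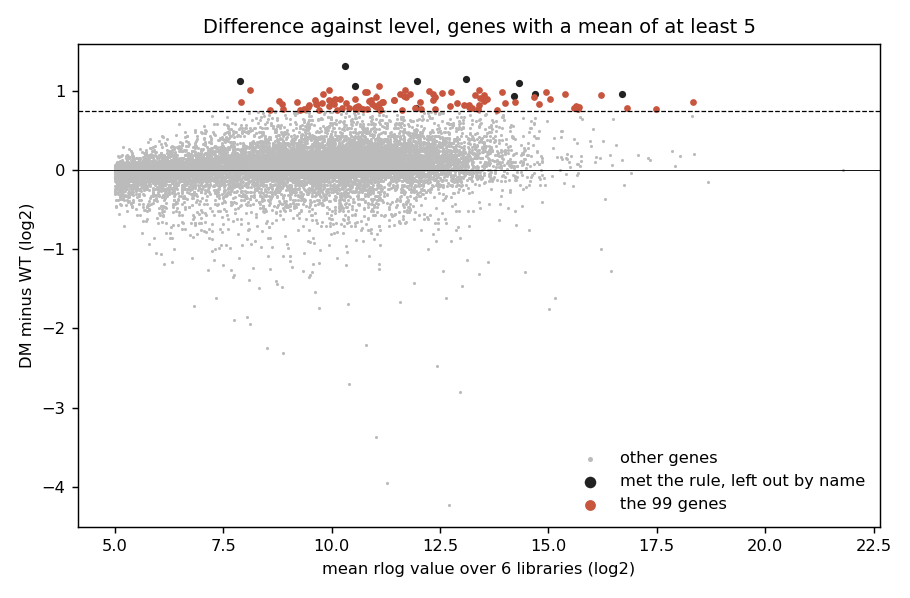
Difference between DM and WT (log2) against the mean rlog value over the 6 libraries for the 13448 genes whose mean was 5 or more. Red points are the 99 genes, black points the 10 genes left out by name that met the same conditions, and the dashed line marks 0.75. The 99 genes form a narrow band between 0.76 and 1.07, while the differences of genes lower in DM reach below -4.

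The largest difference belonged to Met (ENSMUSG00000009376.15; GRCm38 chromosome 6, 17463800 to 17573980, plus strand), the receptor tyrosine kinase for hepatocyte growth factor. Its rlog values were 10.46, 11.04 and 10.19 in WT replicates 1, 2 and 3 and 11.77, 11.74 and 11.39 in DM replicates 1, 2 and 3, and values below follow that order. The means were 10.57 ± 0.436 and 11.63 ± 0.212 (SD, n = 3 each), a difference of 1.07 (SE 0.188 from the limma fit). The lowest DM value stood 0.34 above the highest WT value, while the WT libraries themselves spanned 0.85. Both neighbours upstream of Met on the same strand, Cav2 and Cav1, were also among the 99 genes. They encode caveolins, the coat proteins of caveolae, which are small pits of the plasma membrane. Cav1 (chromosome 6, 17306335 to 17341452) had values of 7.50, 8.01 and 7.31 in WT against 8.54, 8.93 and 8.40 in DM, a difference of 1.02 (SE 0.179). For Cav2 (17281185 to 17289115) the values were 9.54, 9.94 and 9.25 against 10.39, 10.67 and 10.30, a difference of 0.88. In all 3 genes WT replicate 2 was the highest WT library and WT replicate 3 the lowest.

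The promoters of Met and Cav2 hold a match to TGANTCA, a 7-letter pattern for the AP-1 site with any base in the middle. The pattern reads the same on both strands. Cav1, the gene between them, has a promoter entry but is not among the genes with the match. Promoters of 3 other genes described below are printed too, and all were picked for holding the match. Matches of Mmp12, Prdx1, Psap and further genes are not printed, and Mmp12 and Psap each also have a stretch without it. In Trem2 the middle base is A, while the other printed matches have C or G. The stretches are the 150 bases before the start annotated by RefSeq (GRCm38.p6), 5′ to 3′ on the gene's strand, with the match in capitals. They lie at chr6:17463807-17463956 (Met, plus strand), chr6:17281035-17281184 (Cav2, plus strand), chr7:128129400-128129549 (Itgax, plus strand), chr1:171649000-171649149 (Slamf7, minus strand) and chr17:48346251-48346400 (Trem2, plus strand). RefSeq starts can differ from the gene coordinates given elsewhere here, which are from GENCODE M21. By the latter, the stretches of Met and of Slamf7 (171632403 to 171653035) lie inside the gene.
Met: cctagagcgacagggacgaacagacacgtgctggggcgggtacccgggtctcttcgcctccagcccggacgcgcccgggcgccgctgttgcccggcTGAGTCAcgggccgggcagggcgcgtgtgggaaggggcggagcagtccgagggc
Cav2: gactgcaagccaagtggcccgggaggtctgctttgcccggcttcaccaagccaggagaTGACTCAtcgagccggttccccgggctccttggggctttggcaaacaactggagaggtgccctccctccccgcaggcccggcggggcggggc
Itgax: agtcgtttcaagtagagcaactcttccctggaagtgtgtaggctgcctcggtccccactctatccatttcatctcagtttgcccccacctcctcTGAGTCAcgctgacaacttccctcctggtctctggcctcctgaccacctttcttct
Slamf7: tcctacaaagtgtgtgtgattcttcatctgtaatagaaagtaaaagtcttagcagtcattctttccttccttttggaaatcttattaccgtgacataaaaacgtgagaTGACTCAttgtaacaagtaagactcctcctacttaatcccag
Trem2: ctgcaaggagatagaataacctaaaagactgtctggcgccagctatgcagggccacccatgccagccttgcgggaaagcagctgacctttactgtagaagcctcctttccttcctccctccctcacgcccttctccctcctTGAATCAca
Of the 99 genes, 71 had an entry in the RefSeq promoter table, with 91 windows of 300 bases (250 before the start and 50 after it). The motif was in 14 of the 91 windows and in 7.81% of all 32851 windows of the same length. Since fewer than 80% of the genes had an entry, a comparison of shares over the 99 genes is void, and the matches are given as letters in a window, not as bound sites.

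Other proteins of the membrane were among the largest differences. Myof, which encodes the membrane repair protein myoferlin, had values of 12.82, 13.34 and 12.50 in WT against 13.85, 14.04 and 13.82 in DM, a difference of 1.02 (SE 0.176). Lhfpl2, a tetraspan membrane protein, had values of 11.18, 11.76 and 11.05 against 12.15, 12.53 and 12.18, a difference of 0.96. Plet1, a glycosylphosphatidylinositol-anchored surface protein, had values of 9.13, 9.89 and 8.95 against 10.52, 10.46 and 9.92. Its difference was 0.97 (SE 0.228), but WT replicate 2 came within 0.03 of DM replicate 3, the narrowest separation among the 99 genes together with that of Marco. The related tetraspan genes Pmp22 and Emp1 (0.89 and 0.84) and the tetraspanin partner Ptgfrn (0.87) made up the rest of the 8 membrane genes, whose median was 0.92.

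Receptors by which macrophages take up their targets, with proteins that work beside them, made up 14 of the 99 genes, with differences of 0.76 to 1.00 and a median of 0.88. Msr1, the class A scavenger receptor for modified lipoproteins and bacteria, had values of 11.68, 12.14 and 11.38 in WT against 12.58, 12.95 and 12.68 in DM, a difference of 1.00 (SE 0.169). Marco, a related scavenger receptor, had values of 12.31, 12.85 and 11.63 against 13.40, 13.49 and 12.88. Its difference of 0.99 had the largest error of the 99 genes (SE 0.264), and WT replicates 2 and 3 lay further apart than the group means did. C-type lectins that bind microbial sugars or glycolipids were also in the group. Clec4n (dectin-2) had values of 14.10, 14.48 and 14.05 against 15.01, 15.33 and 15.08, and its separation of 0.52 was wider than the range within either group. Clec4d, the gene beside it, had values of 12.35, 12.66 and 12.38 against 13.20, 13.44 and 13.30, a difference of 0.85 (SE 0.1) with a separation of 0.54. Clec7a (dectin-1, the receptor for beta-glucan) had values of 12.99, 13.57 and 12.86 against 14.04, 14.19 and 13.89, a difference of 0.90. The annotation gives Clec7a as a polymorphic pseudogene in the reference strain.

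Genes for the clearance of dying cells stood beside these. Mfge8, a secreted protein that bridges phosphatidylserine on dying cells to integrins, had values of 12.99, 13.44 and 12.67 in WT against 13.95, 14.26 and 13.72 in DM, a difference of 0.95 (SE 0.187). Mertk, a receptor kinase for the same purpose, had values of 10.18, 10.58 and 9.84 against 10.85, 11.25 and 10.93, a difference of 0.81. Its relative Axl differed by 0.80 and the lipid-sensing receptor Trem2 by 0.89. Lrp1, a large endocytic receptor, had values of 14.49, 14.98 and 14.29 against 15.36, 15.62 and 15.47, a difference of 0.90 (SE 0.161). Lrpap1, the chaperone that carries Lrp1 through the secretory pathway, differed by 0.76, and the endocytic adaptor Dab2 by 0.80. The lectin Cd302 (0.87) and the Cd300 family receptor Cd300c2 (0.80) completed the group.

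The other genes of this role came from a list of scavenger, lectin and phagocytic receptors. Outside the 99 genes it had 27 members given to the test, of which limma called 11 higher and 1 lower, with a median of 0.34 against 0.01 over all genes tested. Over all genes tested, 9.2% were called higher and 4.71% lower, the background for each list count given here and below. Clec4e, the receptor mincle and a further neighbour of Clec4d, rose by 0.72 (adjusted p 0.0101), and Clec12a, an inhibitory lectin, fell by 0.69 (adjusted p 0.00925). The count of 11 was not stable to single libraries: it fell to 2 when WT replicate 1 or DM replicate 2 was left out and to 6 when DM replicate 3 was, and it was 17 with the replicate number as a block.

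Lipid handling was the role of 8 of the 99 genes, with differences of 0.78 to 0.97 and a median of 0.88. Lpl, the lipase that frees fatty acids from lipoproteins, had values of 14.78, 15.31 and 14.61 in WT against 15.75, 16.13 and 15.74 in DM, a difference of 0.97 (SE 0.177). The fatty acid binding protein Fabp5 had values of 12.90, 13.22 and 12.37 against 13.60, 14.16 and 13.57, a difference of 0.95 (SE 0.21). Fabp4, of the same family, differed by 0.84, with WT values of 9.20, 9.63 and 8.82 and DM values of 9.91, 10.35 and 9.92. Lipa, the acid lipase of lysosomes, had values of 12.89, 13.35 and 12.76 against 13.74, 14.13 and 13.62, a difference of 0.83. Cyp4v3, a fatty acid hydroxylase (0.90), Plpp3, a lipid phosphatase (0.88), Naaa, a lysosomal amidase of fatty acid amides (0.87), and the adaptor Pid1 (0.78) were the others. In the list of lipid uptake, transport and storage genes, 21 members outside the 99 were tested, 10 were called higher and 1 lower, and the median was 0.29. Nr1h3, the oxysterol receptor LXR alpha, rose by 0.70 (adjusted p 0.0108), and Dgat2, which makes triglycerides, fell by 0.94 (adjusted p 0.00569). The count of 10 became 3 when either WT replicate 1 or DM replicate 2 was left out.

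Lysosomes and endosomes are the site of action of 10 of the 99 genes, with differences of 0.79 to 0.99 and a median of 0.85. Atp6v0d2, a subunit of the proton pump, had values of 13.38, 13.92 and 13.02 in WT against 14.39, 14.66 and 14.24 in DM, a difference of 0.99 (SE 0.198). Slc11a1 (Nramp1), which removes metal ions from phagosomes, had values of 10.91, 11.39 and 11.01 against 12.03, 12.25 and 11.91, a difference of 0.96 (SE 0.129) whose separation of 0.51 exceeded the range within each group. Igf2r, the receptor that carries hydrolases to the lysosome, differed by 0.89. Among the proteins carried there, Ctsb, a cysteine protease, had values of 15.23, 15.64 and 15.03 against 16.02, 16.30 and 15.97, a difference of 0.80. Psap, the precursor of the saposins that help break down sphingolipids, had values of 16.31, 16.76 and 16.21 against 17.12, 17.42 and 17.12, a difference of 0.79. Lyz2, the lysozyme of macrophages and neutrophils, had values of 17.81, 18.28 and 17.60 against 18.57, 19.00 and 18.69, a difference of 0.86 (SE 0.193). The pore-forming Mpeg1 (0.84), the cation channel Mcoln3 (0.84), the lysosomal membrane protein Gpr137b (0.94) and Tbc1d9, a protein with a domain that acts on Rab proteins (0.80), were the rest.

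Outside the 99 genes, the lysosomal list had the highest median of the 12 role lists. Of 36 tested proteases, hydrolases and lysosomal membrane proteins, limma called 24 higher and 0 lower, with a median of 0.47. Lgmn, the asparaginyl protease legumain, rose by 0.75 (adjusted p 0.00626), and it is also 1 of the 3 genes that lay nearest below the difference of 0.75. Ctss, the cathepsin that trims the MHC class II invariant chain and 1 of the 11 genes left out, rose by 0.96 (adjusted p 0.0115). Leaving out WT replicate 1 brought the count of 24 to 14, and leaving out DM replicate 2 brought it to 12. No member of the list was called lower in any fit that left out a library, and 1 was with the replicate block.

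**Figure D2:**
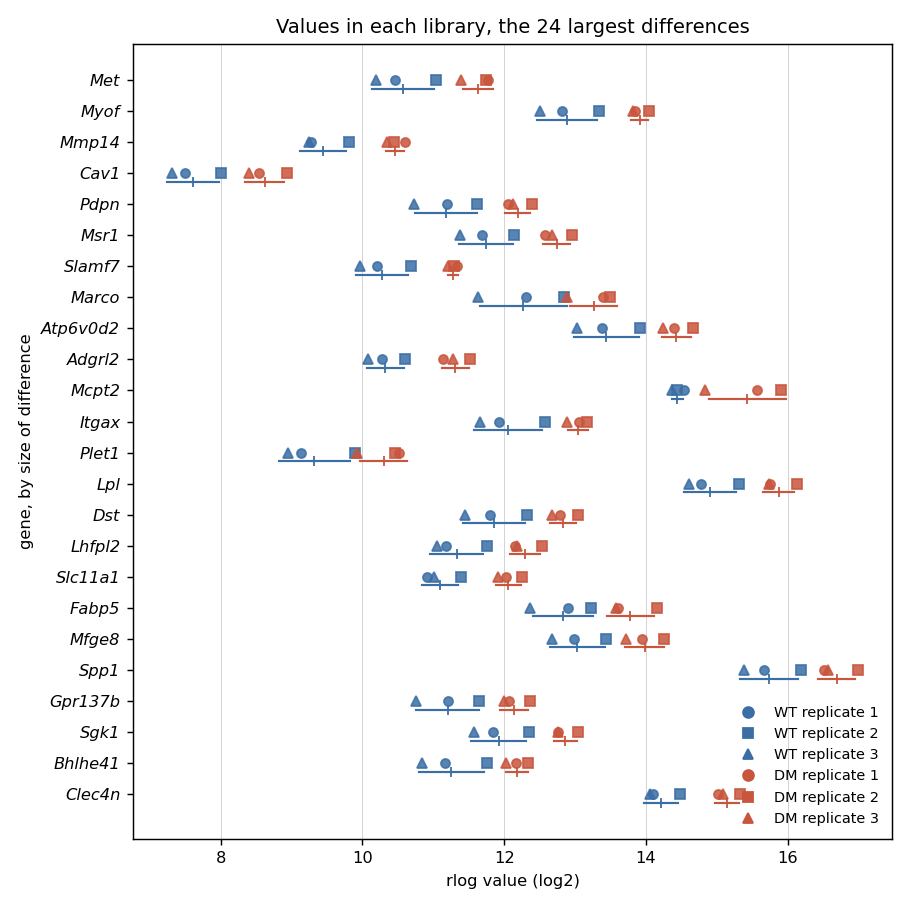
Rlog values (log2) of the 24 genes with the largest differences in each of the 6 libraries, WT in blue and DM in red, with a marker shape for each replicate number. The bar under each gene's points spans the mean ± SD of the 3 libraries of a group, and in each gene the red points lie to the right of the blue ones.

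Matrix and matrix remodelling accounted for 8 of the 99 genes, with differences of 0.76 to 1.02 and a median of 0.83. Mmp14, a membrane-anchored metalloprotease, had values of 9.28, 9.81 and 9.24 in WT against 10.60, 10.44 and 10.35 in DM, a difference of 1.02 (SE 0.14). The secreted elastase of macrophages, Mmp12, had values of 15.19, 15.75 and 14.77 against 16.03, 16.10 and 16.02, a difference of 0.81. Its DM libraries spanned 0.08 while its WT libraries spanned 0.97. Spp1 (osteopontin, a secreted ligand of integrins) had values of 15.67, 16.18 and 15.38 against 16.51, 16.99 and 16.57, a difference of 0.95 (SE 0.199). Tgfbi, another integrin ligand, had values of 12.82, 13.31 and 12.79 against 13.64, 14.03 and 13.98, a difference of 0.91. The metalloprotease Mmp19 (0.78), the heparan sulfate sulfatase Sulf2 (0.84) and the podosome scaffold Sh3pxd2b (0.79) were also in the group. In the wider matrix list the picture was mixed: of 35 members outside the 99, 5 were called higher and 4 lower, with a median of -0.07 (0.1 among genes with a mean of at least 5). Fn1, which encodes fibronectin, fell by 0.66 (adjusted p 0.0156). The count higher was 1 when WT replicate 1, DM replicate 2 or DM replicate 3 was left out, 3 when WT replicate 3 was, and 10 with the replicate block. The count lower was 2 without WT replicate 1, WT replicate 3, DM replicate 1 or DM replicate 3, and 1 without DM replicate 2.

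Adhesion, guidance and cytoskeleton genes numbered 11 and differed by 0.76 to 1.01, with a median of 0.88. Pdpn, the mucin-like surface protein podoplanin, had values of 11.19, 11.61 and 10.73 in WT against 12.06, 12.39 and 12.12 in DM, a difference of 1.01 (SE 0.184). Itgax, the integrin chain CD11c of macrophages and dendritic cells, had values of 11.92, 12.58 and 11.66 against 13.05, 13.17 and 12.89, a difference of 0.98 (SE 0.193). Adgrl2, the adhesion receptor latrophilin 2, had values of 10.27, 10.60 and 10.08 against 11.13, 11.51 and 11.28. Its difference of 0.99 (SE 0.134) came with a separation of 0.53, wider than the range within each group. Dst, a linker of cytoskeletal filaments, had values of 11.80, 12.32 and 11.45 against 12.79, 13.04 and 12.67, a difference of 0.97. The semaphorin receptors Plxna1 (0.88) and Nrp2 (0.82), the galactose-binding lectin Lgals3 (0.79), the junction protein Clmp (0.90), and Cttnbp2nl (0.84), Shtn1 (0.79) and Scel (0.76) were the others. Of 36 tested integrins and adhesion receptors outside the 99, 15 were called higher and 1 lower, with a median of 0.14 that was 0.05 without WT replicate 1 and 0.06 after quantile normalization. Alcam (0.74, adjusted p 0.00828) and Icam1 (0.70, adjusted p 0.00308) rose, and Vcam1, a ligand of leukocyte integrins, fell by 0.74 (adjusted p 0.00423). The count of 15 was 5 without WT replicate 1 or DM replicate 2, 10 without WT replicate 3 or DM replicate 3, and 10 after quantile normalization, while 1 or 2 were called lower in each fit.

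Growth factor, kinase and calcium genes numbered 9 with Met, with a median of 0.87. Sgk1, a kinase downstream of PI3K, had values of 11.84, 12.35 and 11.58 in WT against 12.76, 13.04 and 12.76 in DM, a difference of 0.93. Inhba, the subunit of activin A, had values of 12.51, 13.15 and 12.56 against 13.65, 13.50 and 13.56, a difference of 0.83 (SE 0.149), and its DM libraries were nearly level. Rps6ka2, a kinase downstream of ERK (0.90), Stac2 (0.89), the calcium-binding S100a1 (0.87), the sodium and calcium exchanger Slc8a1 (0.82), the calmodulin-dependent kinase Camk2d (0.78) and the Ral exchange factor Rgl1 (0.77) made up the rest. Of 50 tested cytokines, growth factors and receptors outside the 99, 19 were called higher and 3 lower, with a median of 0.22. Csf1r, the receptor that macrophages need for survival, rose by 0.73 (adjusted p 0.00415), Il1a rose by 0.74 (adjusted p 0.0108), and Vegfa fell by 1.22 (adjusted p 0.000331). The count of 19 was 9 without WT replicate 1 or DM replicate 3, 11 when DM replicate 2 was left out and 12 when WT replicate 3 was.

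Immune receptors and effectors were the most mixed group, with 13 genes, differences of 0.76 to 0.99 and a median of 0.79. Slamf7, a self-binding receptor of the SLAM family, had values of 10.20, 10.68 and 9.96 in WT against 11.33, 11.29 and 11.20 in DM, a difference of 0.99 (SE 0.149). Ly9, its neighbour and relative, differed by 0.85. The MHC class II chains H2-Aa and H2-Ab1 differed by 0.88 and 0.79, and Cd74, the invariant chain that escorts them, by 0.81. H2-Aa had values of 10.16, 10.77 and 10.34 against 11.25, 11.48 and 11.18, with WT replicate 1 the lowest, unlike most of the 99 genes. Of 11 other tested genes of class II presentation, 5 were called higher and 1 lower, with a median of 0.24 that was 0.16 without WT replicate 1. Among them H2-Eb1 rose by 0.74 (adjusted p 0.0074) and H2-DMa by 0.60 (adjusted p 0.0115). The call lower, of H2-Ob, was lost in each fit that left out a library.

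Mcpt2, a protease of mast cells, stood apart within the group. Its WT values were 14.53, 14.44 and 14.37, closer together than in most of the 99 genes, and its DM values were 15.57, 15.90 and 14.83, the widest DM range of the 99. The difference was 0.99 (SE 0.218), 1.29 without DM replicate 3 and 0.75 when DM replicate 2 was left out instead. Of the 16 tested mast cell and basophil markers outside the 99, 1 was called higher and 1 lower (0 lower without WT replicate 2, WT replicate 3, DM replicate 2 or DM replicate 3, and 3 lower without WT replicate 1). The higher one was Mcpt1, a near neighbour and relative of Mcpt2 that was left out by name. Its call was lost in 9 of 12 alternative fits, 5 of the 6 that left out a library among them (all but the one without DM replicate 3). Reads of near-identical proteases could be split between such copies, which makes both values uncertain. Ccl6, a chemokine, had values of 16.99, 17.38 and 16.90 against 17.65, 18.12 and 17.82, a difference of 0.78. Cmklr1, the chemerin receptor, had values of 10.04, 10.54 and 10.46 against 11.08, 11.14 and 11.12, and its separation of 0.55 was the widest of the 99 together with that of Ftl1-ps1. The pattern recognition receptors Tlr7 and Cd180 (0.79 and 0.77), Ms4a6d (0.79), Cd200 (0.86) and the interferon-inducible Ifi207 (0.76) completed the group. Of 28 tested chemokines and chemokine receptors outside the 99, 8 were called higher and 5 lower, with a median of 0.28. Cxcl16 rose by 0.74 (adjusted p 0.00411) and Ccl24 fell by 1.11 (adjusted p 0.00308). The count of 8 became 4 when WT replicate 1 was left out and 5 when DM replicate 3 was, and the count of 5 lower was 3 without WT replicate 3, DM replicate 1 or DM replicate 2.

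Metal, redox and survival genes numbered 8, with a median of 0.80. The metallothioneins Mt1 and Mt2 bind zinc and copper. Mt2 had values of 13.82, 14.10 and 13.50 in WT against 14.54, 14.84 and 14.62 in DM, a difference of 0.86 (SE 0.144), and Mt1 had 15.28, 15.59 and 15.03 against 15.94, 16.27 and 15.99, a difference of 0.77. An antisense gene, Gm45774, overlaps Mt2, and whether the counting used strand is not given in the sources used here. The 2 promoters are printed because such genes are known to respond to metal through copies of the element TGCNCNC, shown in capitals where it or its reverse complement GNGNGCA occurs. They are the 150 bases before the RefSeq start (GRCm38.p6, plus strand), at chr8:94178939-94179088 and chr8:94172468-94172617. The 250 bases before that start hold 1 match for Mt1 and 5 for Mt2, of which 3 are in the printed stretch. The gene annotation used elsewhere here starts Mt1 at 94179082, inside the printed stretch, and Mt2 at 94172664. The bases next to that Mt2 start are not shown, and the counts hold for these RefSeq starts only.
Mt1: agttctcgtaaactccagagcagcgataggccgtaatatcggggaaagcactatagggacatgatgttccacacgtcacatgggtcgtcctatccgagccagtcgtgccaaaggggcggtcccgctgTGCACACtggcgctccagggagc
Mt2: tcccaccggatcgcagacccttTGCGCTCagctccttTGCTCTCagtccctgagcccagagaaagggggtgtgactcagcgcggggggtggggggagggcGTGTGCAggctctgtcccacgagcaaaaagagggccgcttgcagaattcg
The 7 letters are common, since 51% of all 32851 promoter windows hold them. Slc39a2, a zinc importer, differed by 0.93, Prdx1, a peroxidase, by 0.85, Hebp1, a haem-binding protein, by 0.81, and Slc7a11, the cystine transporter, by 0.78. Bcl2a1d (0.79) and Bcl2a1b (0.78), near-copies of 1 survival gene, cannot be separated with certainty. Bcl2a1b had the values 8.39, 8.73 and 8.38 against 9.23, 9.38 and 9.25.

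Nuclear proteins were encoded by 6 of the genes, which differed by 0.76 to 0.93, with a median of 0.79. Bhlhe41, a transcriptional repressor, had values of 11.16, 11.75 and 10.84 in WT against 12.17, 12.34 and 12.03 in DM, a difference of 0.93 (SE 0.189). Klf4, a factor of monocyte differentiation, had values of 10.06, 10.49 and 9.98 against 10.71, 11.26 and 10.92, a difference of 0.78. The Wnt effector Tcf7l2 (0.81), the replication fork protein Zranb3 (0.89), Mdfic (0.76) and the membrane-bound factor Myrf (0.76) were the others. Among 39 tested MiT/TFE and macrophage transcription factors outside the 99, 18 were called higher and 2 lower, with a median of 0.29. Egr2 rose by 0.69 (adjusted p 0.00377), and Cebpe, a factor of granulocyte maturation, fell by 1.74 (adjusted p 0.000157). The count of 18 was 10 when either WT replicate 1 or DM replicate 3 was left out, 8 when DM replicate 2 was and 11 after quantile normalization, and the count of 2 lower was 1 without WT replicate 1, WT replicate 2, DM replicate 1 or DM replicate 2. The last 4 of the 99 genes were the pseudogenes Gpr137b-ps (0.89), Gm14328 (0.85) and Gm6166 (0.84), and Ftl1-ps1 (0.76), a ferritin copy that the annotation gives as protein coding. Their reads may belong in part to their parent genes.

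The remaining role lists were mixed. The counts outside the 99 include Ctss in the lysosomal and MHC class II lists, Cd36 in the lipid list, Procr in the complement list and Maoa in the amine list, each left out by name and called higher, and without it each of these counts is 1 lower. Of 22 tested complement and coagulation genes outside the 99, 7 were called higher and 2 lower, with a median of 0.04. C3ar1, a complement receptor, rose by 0.63 (adjusted p 0.0021), and F13a1, a clotting factor, fell by 1.49 (adjusted p 0.000134). The count of 7 was 2 without WT replicate 1, 3 without DM replicate 2 or DM replicate 3, 4 without WT replicate 3 and 4 after quantile normalization. The count of 2 lower was 1 without WT replicate 1 or any 1 of the DM libraries, and the median was -0.03 without WT replicate 1. Of 39 amine, prostanoid and purine genes, 11 were called higher and 3 lower, with a median of 0.16 (0.08 after quantile normalization). P2ry14 rose by 0.56 (adjusted p 0.00877) and Lta4h, an enzyme of leukotriene synthesis, fell by 0.89 (adjusted p 0.000348). The count of 11 was 7 without WT replicate 1 or DM replicate 2. Of 25 genes linked to alternative activation of macrophages, 6 were called higher and 7 lower, with a median of 0.06 that was -0.04 without DM replicate 1. Cd274 rose by 0.73 (adjusted p 0.00385), while Arg1, the arginase, fell by 2.25 (adjusted p 0.00113) and Mgl2, a lectin, fell by 1.32 (adjusted p 0.000779).

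**Figure D3:**
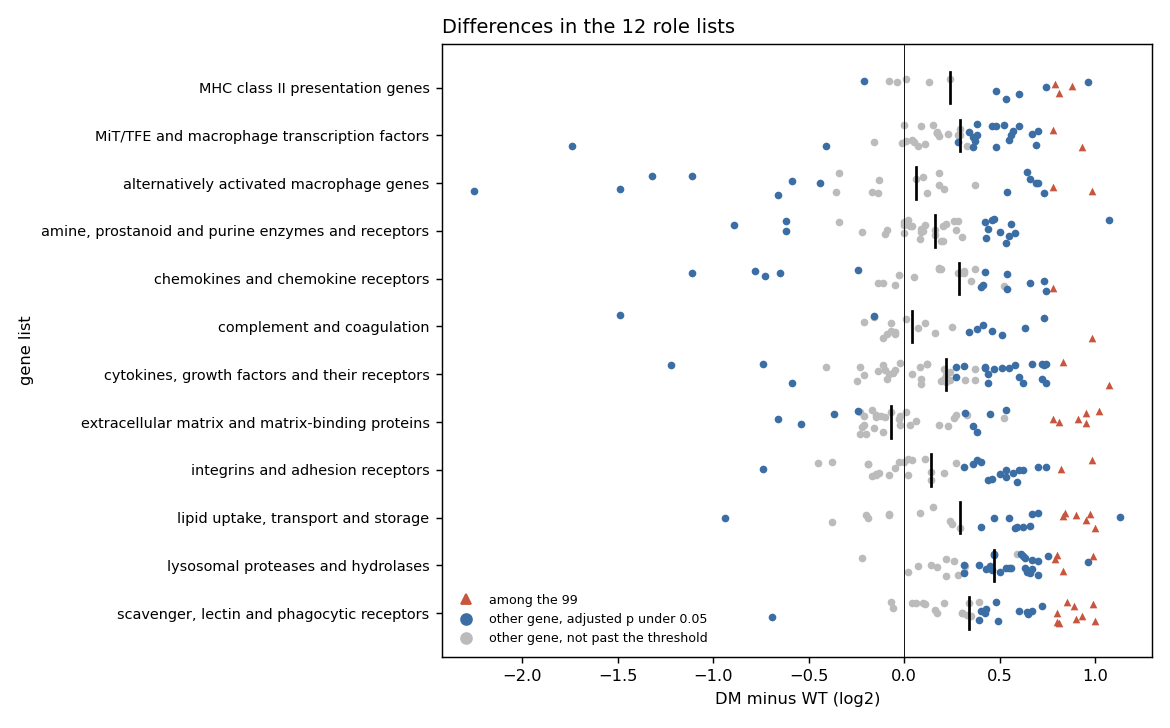
Differences between DM and WT (log2) of every tested gene in the 12 role lists. Triangles are genes among the 99, blue points other genes past an adjusted p of 0.05, grey points other genes, and black bars the median of the genes outside the 99, from -0.07 for the matrix list to 0.47 for the lysosomal list.

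Cell type markers differed in direction from list to list. Of 14 tested monocyte and macrophage markers outside the 99, 8 were called higher and 2 lower, with a median of 0.51. Of the 8, Gpnmb, Ctss and Cd68 were among the genes left out by name, so they had met the same conditions as the 99. Without these 3, limma called 5 of 11 higher and 2 lower, with a median of 0.28. The values of the 11 summed on the linear scale were 37353 to 46999 in WT and 43183 to 50829 in DM, so the groups overlapped, while with the 3 genes they were 120701 to 196157 and 242263 to 291067. The 2 lower were Ly6c2 (-1.13, adjusted p 0.00361) and Ccr2 (-0.78, adjusted p 0.00975), both markers of monocytes fresh from the marrow. Among markers of mature and tissue macrophages, C1qa (mean 2.51) and Cd163 (3.62) were low in all libraries, while Adgre1 (13.41) and Siglec1 (9.68) were not. Of 18 neutrophil markers, 0 were called higher and 14 lower, with a median of -1.27 and linear sums of 413665 to 567115 in WT and 167753 to 297189 in DM. Without WT replicate 2 or DM replicate 1, 1 of them was called higher. The count lower was 11 to 14 when each library was left out. The part of the neutrophil markers in the differences of the 99 genes was not tested. The other marker lists, counted outside the 99, gave smaller counts. Among all genes tested, 9.2% were called higher and 4.71% lower, and several of these counts are near those shares. Osteoclast markers other than Atp6v0d2, which is among the 99, gave 3 higher and 0 lower of 9. The count higher was 1 without WT replicate 1, WT replicate 3, DM replicate 2 or DM replicate 3. Of 10 tested dendritic cell markers, 4 (Itgax, H2-Aa, Cd74 and H2-Ab1) are among the 99 genes. The other 6 gave 1 higher and 1 lower. They gave 0 in either direction in 5 of the 6 fits that left out a library (2 higher and 1 lower without WT replicate 2). Eosinophil markers gave 3 lower of 10 (4 without DM replicate 3). Fibroblast markers gave 3 lower of 9, and 2 lower without WT replicate 1, WT replicate 3 or any 1 of the DM libraries. Without WT replicate 2 they gave 1 higher and 3 lower. Endothelial markers gave 1 lower of 10, and 2 without WT replicate 2 or DM replicate 1. Megakaryocyte markers gave 2 higher of 11 (1 without DM replicate 2), and lymphoid markers 2 lower of 7 (1 without DM replicate 1 or 2). Of 18 stem and progenitor markers, 2 were called higher (Procr, left out by name, among them) and 2 lower. The lower count was 0 when DM replicate 3 was left out and 1 when WT replicate 1, WT replicate 3 or DM replicate 2 was, and the higher count was 1 without DM replicate 2. For erythroid markers limma called 0 of 11 in either direction (1 lower without WT replicate 2).

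The order of the libraries within each group was not used to choose the genes, and it was nearly the same across them. WT replicate 2 was the highest WT library for 97 of the 99 genes (98%), against 56% of all genes with a mean of at least 5. WT replicate 3 was the lowest for 87 (87.9%, against 61%), and the full order of replicate 2 above 1 above 3 held for 85 (85.9%, against 39.3%). Among the DM libraries replicate 2 was the highest for 89 (89.9%, against 36.4%). The exceptions in WT were Mcpt2 and Ftl1-ps1. In DM they were Met, Mmp14, Slamf7, Plet1, Clmp, Rps6ka2, Cd200 and Inhba, highest in replicate 1, and Pid1 and Ifi207, highest in replicate 3. Part of the order of the libraries was shared by other raised genes. Under the same limit of 5 on the mean, 3859 genes outside the 99 had every DM value above every WT value. WT replicate 2 was the highest WT library for 77.2% of them and WT replicate 3 the lowest for 67.8%. DM replicate 2 was their highest DM library in 54.5%. These counts describe genes that share the same 6 libraries and are not independent of each other.

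**Figure D4:**
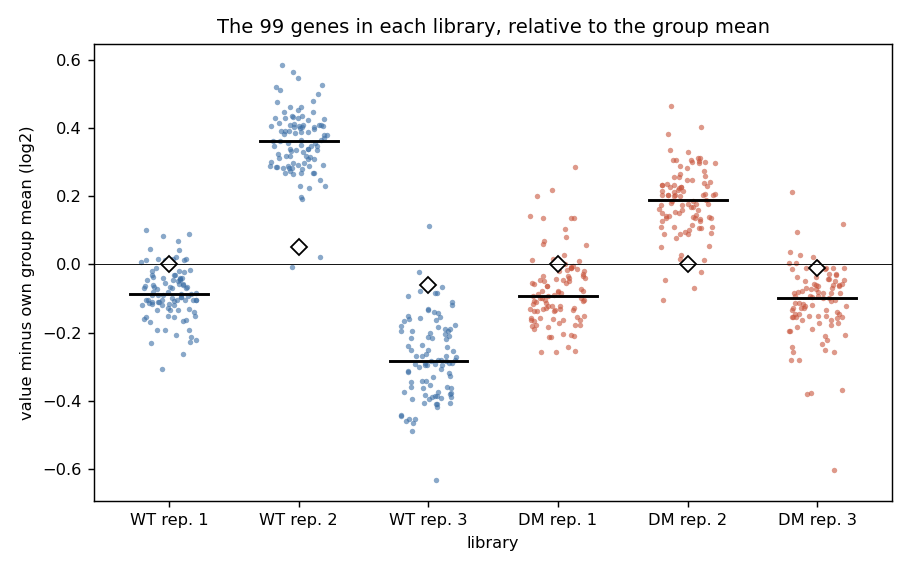
Value of each of the 99 genes in each library minus the mean of its own group (log2). Black bars are the medians of the 99 genes and white diamonds the medians of all genes with a mean of at least 5, which stay between -0.06 and 0.05 while those of the 99 genes reach 0.37 in WT replicate 2.

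The WT group was the wider one. The median range over the 3 WT libraries was 0.65, against 0.36 in DM, and over all genes with a mean of at least 5 the medians were 0.18 and 0.15. The separation between the lowest DM and the highest WT value had a median of 0.35 and ran from 0.03 to 0.55, and for 89 genes it was smaller than the WT range. It exceeded the range of both groups for 9 genes, which were Adgrl2, Slc11a1, Clec4n, Clec4d, Bcl2a1b, Rgl1, Cmklr1, Ftl1-ps1 and Mdfic. For 7 genes (Marco, Clmp, Stac2, Pmp22, Mmp12, Myrf and Scel) WT replicates 2 and 3 differed by more than the group means. Summed on the linear scale, the 99 genes took 3.04%, 3.89% and 2.79% of all values in WT against 4.82%, 6.05% and 5.06% in DM. The highest WT share thus stood nearer to the lowest DM share than to the lowest WT share.

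The number of genes meeting the conditions depended on single libraries. With the conditions applied to the remaining 5, it was 38 without WT replicate 3 (36 of them among the 99), 62 (55 among the 99) when DM replicate 2 was left out, and 224 (all 99 among them) when WT replicate 2 was. After quantile normalization it was 49, all among the 99. The median difference of the 99 genes lay between 0.72 without WT replicate 3 and 1.03 without WT replicate 2.

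Among the genes just inside the threshold were Ifi207 and Scel, each at 0.76. Just outside lay Rab7b, a small GTPase of late endosomes, Lgmn, and Dse, an epimerase of dermatan sulfate, each at 0.75 to 2 decimals and below the limit. Scel had values of 8.18, 8.58 and 7.80 in WT against 8.78, 9.07 and 8.98 in DM, and Dse had 9.78, 10.20 and 9.70 against 10.49, 10.83 and 10.61. The condition on overlap kept out 1 gene, H2-M2, whose difference was 0.96 with the highest WT value 0.06 above the lowest DM value.

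Position was another measure that the choice did not use. Of the 99 genes, 96 matched GENCODE M21 by versioned identifier (not Dst, Tcf7l2 and Sh3pxd2b), and 92 of these (95.8%) were protein coding, against 87.3% of matched genes with a mean of at least 5. Chromosome 6 held the most, 11 (11.5%, against 5.04%), and chromosome 12 held 0 (against 3.44%). The median gene span was 26274 bases, against 24005 for all protein-coding genes with such a mean. On the same chromosome and within 500 kb of each other lay 10 pairs, which took in 17 genes (17.7%), and 6.88% of all genes with a mean of at least 5 lay that near to a member of the set. The pairs were Cav2, Cav1 and Met (3 pairs), Ly9 and Slamf7, H2-Ab1 and H2-Aa, Fabp5 and Fabp4, Clec4n and Clec4d, Hebp1 and Emp1, Mt2 and Mt1, and Bcl2a1d and Bcl2a1b. Most join related genes. Hebp1 and Emp1 do not, nor do Met and the caveolins. A gene on the opposite strand is annotated for 37 of the 96, and its reads cannot be told apart where strand was not used.

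Genes around these pairs did not all move with them. On the far side of Met from the caveolins, Capza2 and St7 each differed by 0.31. Capza2 was called (adjusted p 0.0311), but not without WT replicate 1 (0.29), WT replicate 3 (0.26), DM replicate 1 (0.32), DM replicate 2 (0.27) or DM replicate 3 (0.33), nor after quantile normalization (0.17). St7 (adjusted p 0.0926) was called without WT replicate 2 (0.41, adjusted p 0.0338). Around Mt2 and Mt1, 5 other genes differed by -0.09 to 0.39 and none was called by limma at an adjusted p under 0.05. The 3 genes between and beyond Fabp5 and Fabp4 differed by -0.08 to -0.01, none called. In the cluster of lectin genes, Clec4e rose as given above while Clec4b2, closer to Clec4n than Clec4a2 is, fell by 0.56 (adjusted p 0.00697). Near H2-Ab1 and H2-Aa, 3 of 10 other genes were called higher, namely H2-Eb1, H2-DMa and H2-DMb1 (0.48, adjusted p 0.0178). The last of these lost its call when either WT replicate 1 (0.47) or DM replicate 2 (0.41) was left out. The peptide transporter genes Tap1 and Tap2 in the same stretch differed by 0.07 and 0.14, with neither called.

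**Figure D5:**
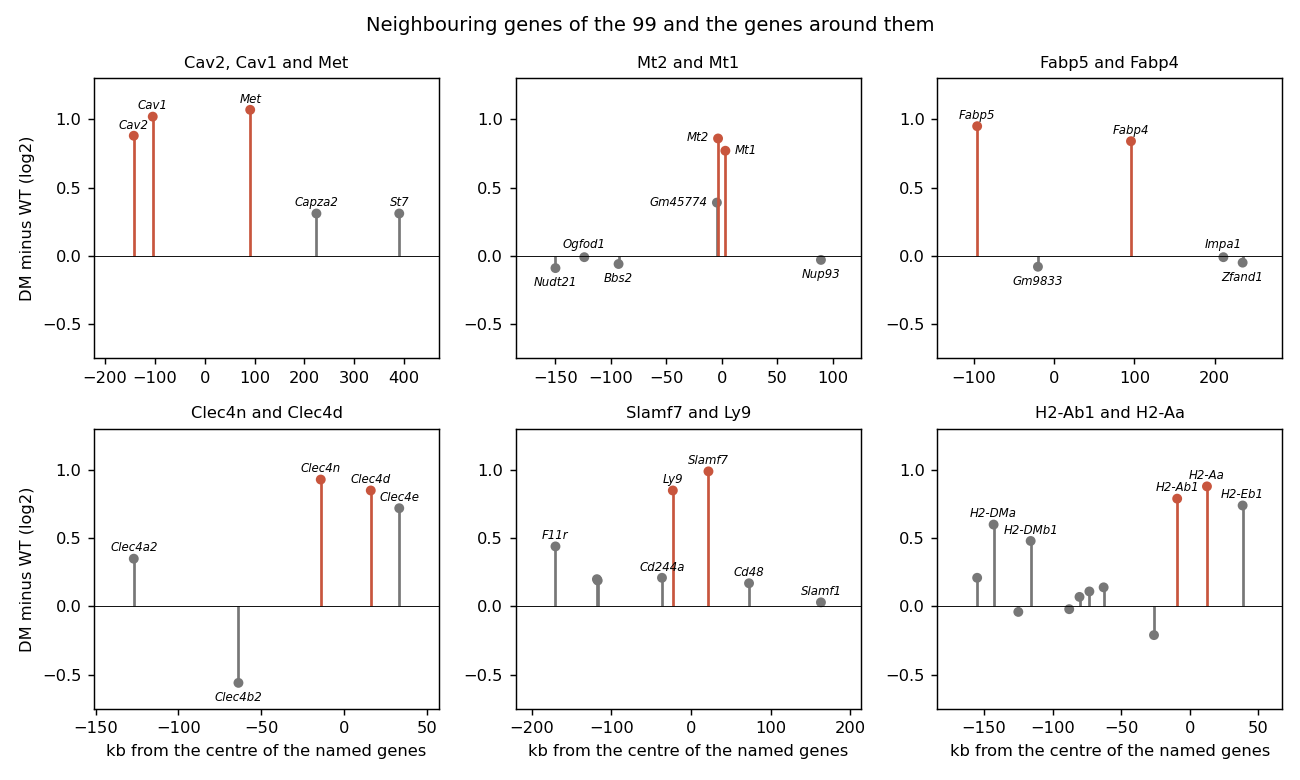
Differences between DM and WT (log2) of genes within 150 kb of 6 groups of neighbouring genes, against the distance in kb from the centre of each group. Red marks genes among the 99 and grey other genes with a mean of at least 5. Beside the red lines near 0.8 to 1.1, grey lines run from -0.56 for Clec4b2 to 0.74 for H2-Eb1.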

How the data were processed

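The deposited table held rlog values, on a log2 scale, for 6 RNA-seq libraries of 1 mouse series (3 WT, 3 DM). Per the labels' protocols, RNA came from an AllPrep kit and libraries from a total RNA kit that depletes abundant transcripts. The submitters' processing notes name cutadapt 2.6, STAR 2.7.3, DESeq2 1.30.0, DESeq and the build mm10, without their roles. The annotation, the counting tool and the use of strand are not given in the sources used here. The 142699 lines were merged to 55487 genes, since lines of a gene were identical, and 7553 of them had the value 0 in every library. Without counts, no depth, counting interval or count model could be had, and no fit on counts was run.

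Genes with a mean of at least 3 (18766) were fitted with limma 3.58.1 (functions lmFit and eBayes, trend option on; R 4.3.3), DM against WT without covariates, with Benjamini-Hochberg adjustment and a threshold of 0.05. On simulated data with 200 of 18766 genes changed, the fit called 55 of 67 genes changed by 0.5, 64 of 67 changed by 1 and 65 of 66 changed by 1.5, and 11 of 18566 unchanged genes. The simulated noise was drawn separately for each gene, so deviations that many genes of a library share were left out. These counts therefore check the fit and do not give its error rates on the real libraries. Coordinates and biotypes are from GENCODE M21 on GRCm38, which is the build called mm10, and promoters from RefSeq on GRCm38.p6. The remaining steps ran in Python 3.11.15 with pandas 2.3.3 and matplotlib 3.10.9.

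The 99 genes, the 12 role lists and the 12 marker lists were chosen with earlier results of these data known, and the role groups were set after the values were seen. The role lists cover extracellular matrix, integrins and adhesion, lysosome, lipid, scavenger and phagocytic receptors, complement and coagulation, chemokines, cytokines and growth factors, amine, prostanoid and purine genes, alternative activation, MHC class II, and MiT/TFE and macrophage factors. Genes given with values were the 20 largest differences, up to 4 of the 99 per list, the 3 nearest to the threshold on either side, the 5 widest separations and the 5 highest means, and, outside the 99, up to 3 called genes per list and direction. Of the last, the text prints mainly those whose call held in each of the 12 alternative fits. Bcl2a1b, Cav2, Fabp4, Mt1, Mt2, Mmp12, Sgk1 and the label check genes were singled out after their values were seen, as were the neighbours of the 99 genes. A few items that these rules name are not reported here. Replicate numbers are not known to pair the libraries, and the main fit did not use them. Deviations of same-numbered libraries correlated at 0.491 (replicate 1), 0.116 and 0.041. Those of WT and DM libraries with unlike numbers correlated at -0.336 to 0.124.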

Additional observations from a re-analysis of the deposited data

How the results depend on the processing

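Without counts, the precision of low values is unknown, and a comparison of edgeR with DESeq2 was not run. The sign of the 99 differences is fixed by their choice. Medians near 0 of gene lists outside the 99 changed sign: matrix -0.07 (0.10 at a mean of at least 5), complement 0.04 (-0.04 without the filter on the mean, -0.03 without WT replicate 1) and alternative activation 0.06 (-0.04 without DM replicate 1). Keeping the genes left out by name out of the lists was tried after the data were seen. Genes called over all genes numbered 2611, and 1119 to 3475 when each library was left out, with 1185 without WT replicate 1, while leaving out DM replicate 2 gave 1119 and DM replicate 3 gave 1537. Role list genes outside the 99 that were called numbered 159, and 81 to 174 when each library was left out, with 81 when either WT replicate 1 or DM replicate 2 was the one left out. The number of genes meeting the conditions, 99, became 262 at a difference of at least 0.6, 6 at a difference of at least 1 and 49 after quantile normalization. It ran from 38 to 224 when each library was left out. It was 99 with a mean of at least 3 or 6, 100 without the condition on overlap and 83 after centring each library. The cause of these shifts was not tested, other than the change of limit itself. With the replicate number as a block 3742 genes were called and 196 of the role list genes outside the 99, but the numbers are not known to pair libraries, and the deviations of WT replicate 3 correlated more with DM replicate 2 (0.124) than with DM replicate 3 (0.041). Without the filter on the mean, genes called higher numbered 1132 against 1727. The share of promoter windows of the 99 genes with TGCNCNC was 52.7% over 300 bases and 45.1% over the 250 bases before the start.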
